A study of Mus musculus with 18 samples.

Results

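The Toll-like receptor genes and the co-receptor gene Cd14 were followed in RNA sequencing of a mouse macrophage cell line exposed to inhibitors of C-terminal binding proteins (CTBPs). The members were the rows of the expression table whose symbol is Tlr1, Tlr2, Tlr3, Tlr4, Tlr6, Tlr7, Tlr8, Tlr9, Tlr13 or Cd14, that is 10 of 18204 genes, a rule that uses no measured value. The remaining mouse receptor genes Tlr5, Tlr11 and Tlr12 were not analysed here, because the table used holds no row with these symbols. Of the 10 members, 9 passed the filter on low values and were tested, and Tlr8 was not.

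Toll-like receptors are germline-encoded sensors of microbial molecules, and macrophages are among the cells best known for using them. Tlr1, Tlr2, Tlr4 and Tlr6 encode receptors of the cell surface, where TLR2 pairs with TLR1 or TLR6 to bind bacterial lipopeptides and TLR4 together with MD-2 binds lipopolysaccharide, which CD14 delivers. Tlr3, Tlr7, Tlr8, Tlr9 and Tlr13 encode endosomal receptors of nucleic acids, and nearly all receptors signal through the adaptor MyD88, with TRIF serving TLR3 and, beside MyD88, TLR4.

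The samples were J774.1 cells, an established mouse line with macrophage properties, either wildtype or Ctbp1/2 dKO, in which both Ctbp1 and Ctbp2 had been targeted by CRISPR-Cas9 and the line raised by monoclonal outgrowth. Each genotype received a PBS/DMSO vehicle, 1.5 mM MTOB (4-methylthio-2-oxobutanoate, a keto acid that binds the substrate pocket of CTBPs) or 0.25 mM 4-Cl-HIPP (a chlorophenyl hydroxyimino acid, developed from that lead) for 4 h, with 3 samples in each of the 6 groups. The study asked whether the inhibitor effects require CTBPs. No group received a microbial ligand, the source of the cells behind each dKO sample beyond this line is not given, and each genotype has a single vehicle group, so the comparisons of both inhibitors share their vehicle samples. The methods give PBS as the solvent of MTOB and DMSO as that of 4-Cl-HIPP, while the description names DMSO alone as vehicle. Whether the inhibitor samples received both solvents is not given.

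Levels are in TPM, a measure of transcript abundance scaled to transcript length and to the total of each sample. The samples sum to 999766 to 999897 TPM, so sequencing depth is unknown, and the mean normalized count of the authors stands in for it below. Differences are log2 fold changes of TPM + 1 from limma over all 16383 genes tested, and a change is called where the Benjamini-Hochberg-adjusted p is below 0.05. Of 8 macrophage markers, 7 were in the table, led by Csf1r at 840, Cd68 at 608 and Lyz2 at 538 TPM on average, and none of the listed B cell, T cell, neutrophil, conventional dendritic cell or fibroblast markers exceeded 2.07 TPM in any sample. Of 2 plasmacytoid dendritic cell markers, Siglech stayed at or below 1.28 TPM and Bst2, which other cells also express, averaged 151 TPM. Of the targeted genes, Ctbp1 was at 170 to 238 TPM in the wildtype and 19.7 to 31.5 TPM in the dKO samples, and Ctbp2 at 87.8 to 96.9 and 68.5 to 81.9 TPM. Ctbp2 RNA thus remained in dKO cells. The study describes a premature stop and frameshifting edits in both genes, and it reports that western blotting showed loss of both proteins. Selected clones were also checked by sequencing, and protein was not analysed here.

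Expression of the members spanned a wide range, with Cd14 at the top and Tlr8 at the bottom. In wildtype cells under vehicle Cd14 averaged 458 ± 16.8 TPM (SD, n = 3), and only 1.68% of the listed genes had a higher mean. Tlr2 followed at 79.2 ± 0.564 TPM and Tlr7 at 57.5 ± 3.00 TPM (SD, n = 3), and the samples of neighbours among these leading genes did not overlap. Next came Tlr1 at 12.7 ± 2.10 TPM and Tlr4 at 11.7 ± 0.497 TPM (SD, n = 3), whose samples overlapped. Tlr13 at 6.62 ± 1.07 TPM, Tlr6 at 5.22 ± 1.30 TPM and Tlr9 at 3.27 ± 0.63 TPM (SD, n = 3) formed a chain in which each neighbouring pair overlapped, and Tlr3 lay below them at 0.192 ± 0.0603 TPM (SD, n = 3). Tlr8 was listed at 0 in 16 of 18 samples, and 2 wildtype samples with MTOB had 0.0778 and 0.0812 TPM.

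The order at the top held in the other groups, with an exception. Cd14 led in all 6 groups, but in dKO cells with 4-Cl-HIPP its samples ran from 91.6 to 120 TPM and overlapped those of Tlr2, which ran from 86.4 to 94.7 TPM. Tlr4 ranked above Tlr1 in all 3 dKO groups, without overlap, whereas in wildtype cells their samples overlapped under vehicle and 4-Cl-HIPP. The mean of Tlr9 stood above that of Tlr13 in wildtype cells with MTOB and below it in the other 5 groups, with overlapping samples in dKO cells with MTOB. The mean normalized counts given by the authors were 2524 for Cd14, 1287 for Tlr2 and 665 for Tlr7, against 78.2 for Tlr9, 55.2 for Tlr6, 12.3 for Tlr3 and 0.109 for Tlr8, so the values of the low members rest on few reads.

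**Figure D1:**
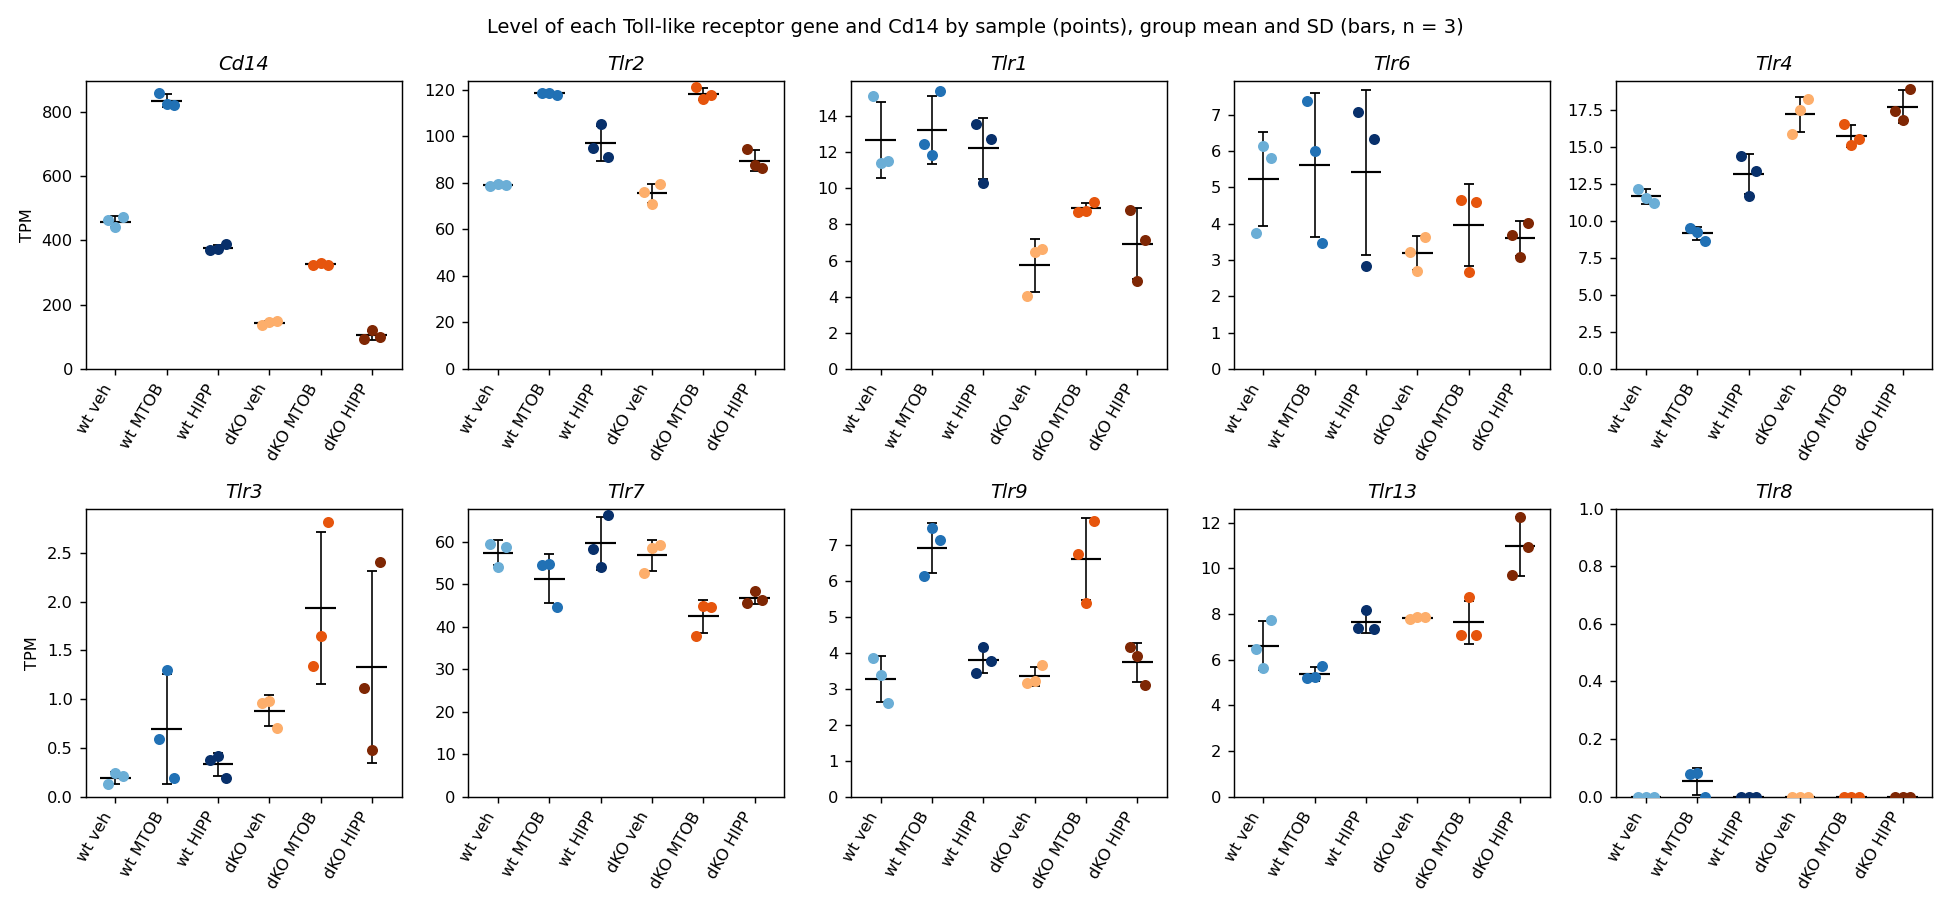
Level of each member in TPM (linear vertical axes starting at 0) in the 6 groups, where wt is wildtype, veh is vehicle and HIPP is 4-Cl-HIPP. Points are samples, horizontal lines are group means and error bars are SDs (n = 3). Cd14, Tlr2 and Tlr9 are higher in every MTOB sample than in every vehicle sample of the same genotype, and Cd14 is lower in every dKO sample than in every wildtype sample of the same treatment.

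The genes lie on 6 chromosomes besides that of Cd14 (GRCm39, GENCODE vM39). Tlr1 (chr5:65082022-65090941, minus strand) and Tlr6 (chr5:65108704-65203497, minus strand) are neighbours and related in sequence. Of the distinct 31-base words in Tlr1 transcripts, 19.5% also occur in transcripts of other genes, mostly in Tlr6 (607 of 3416), and for Tlr6 the share is 12.9%. Reads from those stretches may have been split between both genes, so their levels are less certain than those of Tlr9 (chr9:106099797-106104082, plus strand) and Cd14, for which the share is 0%, or of Tlr2 (chr3:83743576-83749074, minus strand) at 0.341%. Tlr4 (chr4:66745783-66849936, plus strand) shares 3.3%, Tlr13 (chrX:105186810-105204533, plus strand) 1.41%, Tlr7 (chrX:166086758-166113605, minus strand) 8.88% and Tlr3 (chr8:45848702-45864117, minus strand) 7.05%. Tlr8 (chrX:166024184-166047325, minus strand) lies close to Tlr7 and shares 0%.

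The promoter sequences of Tlr2 and Tlr9, receptor genes that rose with MTOB in both genotypes, and of Tlr1 and Tlr13, which differed between genotypes in several treatments, are shown so that their letters can be compared. RefSeq promoters were found for 7 of 10 members (build GRCm38.p6). Each sequence is the 250 bases before the transcript start (for Tlr1 the first listed start), 5′ to 3′ on the strand of the gene, and capitals mark matches to the motifs searched on both strands: the consensus sites of NF-kB and of the interferon-stimulated response element, AP-1 (TGANTCA), PU.1 (GAGGAA) and the core of an antioxidant response element (TGACNNNGC).
Tlr2, chr3:83841609-83841858, minus strand: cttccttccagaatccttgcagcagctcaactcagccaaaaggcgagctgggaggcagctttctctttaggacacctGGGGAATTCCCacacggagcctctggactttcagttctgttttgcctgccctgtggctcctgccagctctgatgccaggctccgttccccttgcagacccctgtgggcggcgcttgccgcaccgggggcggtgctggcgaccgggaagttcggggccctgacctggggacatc
Tlr9, chr9:106222348-106222597, plus strand: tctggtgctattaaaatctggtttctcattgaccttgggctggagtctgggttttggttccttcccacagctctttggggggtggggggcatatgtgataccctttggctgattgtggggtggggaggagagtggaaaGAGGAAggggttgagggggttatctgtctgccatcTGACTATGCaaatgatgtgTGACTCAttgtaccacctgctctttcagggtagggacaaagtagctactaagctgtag
Tlr1, chr5:64933559-64933808, minus strand: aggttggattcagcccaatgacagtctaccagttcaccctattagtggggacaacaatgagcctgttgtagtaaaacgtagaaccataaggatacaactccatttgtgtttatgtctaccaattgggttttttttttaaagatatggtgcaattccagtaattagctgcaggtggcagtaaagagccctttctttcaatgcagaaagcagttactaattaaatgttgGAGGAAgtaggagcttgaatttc
Tlr13, chrX:106143025-106143274, plus strand: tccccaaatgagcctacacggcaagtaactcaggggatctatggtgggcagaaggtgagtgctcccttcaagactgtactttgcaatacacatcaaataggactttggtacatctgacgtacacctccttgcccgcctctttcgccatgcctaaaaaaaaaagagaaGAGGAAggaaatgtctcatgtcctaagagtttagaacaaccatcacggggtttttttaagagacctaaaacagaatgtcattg

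The capitals in the Tlr2 promoter are 2 overlapping NF-kB matches, a motif held by 3.9% of the 32851 promoters. The Tlr9 promoter has a PU.1 match, then an antioxidant response element match and an AP-1 match, which 23.3%, 10.2% and 6.75% of all promoters hold. Tlr1 and Tlr13 each have a PU.1 match. Among the promoters not printed, that of the first listed start of Tlr6 has 2 matches to the interferon-stimulated response element, which 2.98% of all promoters hold, that of Tlr3 has an NF-kB match, and that of Tlr8 a PU.1 match. Windows of the second listed starts of Tlr1 and Tlr6 hold no match to any of these motifs. These matches describe letters in the window and were not tied to binding of any factor.

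Exposure to MTOB went with higher RNA of Cd14, Tlr2 and Tlr9 in both genotypes. In wildtype cells 4 of the 9 members tested were called, against 7.26% of all genes tested, with Cd14, Tlr2 and Tlr9 higher and Tlr4 lower. Adding a fold change above 1.5 left 2 members, Cd14 and Tlr9, against 2.01% of all genes. In dKO cells 4 of 9 were again called, against 6.58%, with Cd14, Tlr2 and Tlr9 higher and Tlr7 lower, and 3 of them exceeded 1.5-fold, against 1.63%. The vehicle and MTOB samples did not overlap in 4 members in wildtype and 6 in dKO cells, against 22.6% and 21% of all genes. The median log2 fold change over the 9 members was 0.06 in wildtype and 0.58 in dKO cells, beside -0.01 and -0.01 over all genes.

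Among the surface receptors and their co-receptor, Cd14 moved most. Its level in wildtype cells was 462, 440 and 473 TPM under vehicle and 857, 824 and 820 TPM with MTOB. Each MTOB sample exceeded each vehicle sample by a wide margin relative to the scatter. The log2 fold change was 0.86 (SE 0.07, 1.82-fold, adjusted p = 1.18e-06, limma, Benjamini-Hochberg). In dKO cells Cd14 was 135, 145 and 149 TPM under vehicle and 322, 329 and 324 TPM with MTOB. The groups were again apart, with a log2 fold change of 1.18 (SE 0.07, 2.27-fold, adjusted p = 3.96e-08, limma, Benjamini-Hochberg). As RNA of a whole culture was measured, fewer cells with a transcript and less of it per cell cannot be told apart, here and below.

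Tlr2 is the common partner of the lipopeptide receptors. In wildtype cells it was 78.6, 79.7 and 79.3 TPM under vehicle and 118.9, 118.8 and 117.9 TPM with MTOB. The wildtype samples within each group were nearly equal, and the groups did not overlap. The log2 fold change was 0.58 (SE 0.05, 1.49-fold, adjusted p = 3.85e-06, limma, Benjamini-Hochberg). In dKO cells Tlr2 was 76.0, 71.0 and 79.4 TPM under vehicle and 121.3, 116.2 and 117.6 TPM with MTOB. All MTOB samples lay above all vehicle samples, at a log2 fold change of 0.64 (SE 0.05, 1.56-fold, adjusted p = 1.27e-06, limma, Benjamini-Hochberg).

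Tlr4, the lipopolysaccharide receptor, went the other way in wildtype cells. It was 12.2, 11.6 and 11.2 TPM under vehicle and 9.56, 9.28 and 8.65 TPM with MTOB, without overlap, and the log2 fold change was -0.32 (SE 0.08, 1.25-fold lower, adjusted p = 0.0241, limma, Benjamini-Hochberg). This call was lost when any of 4 of the 6 samples (vehicle replicates 1 and 2, MTOB replicates 2 and 3) was left out, with adjusted p = 0.0596 to 0.0956, and when only the compared groups were fitted (adjusted p = 0.0513, limma). In dKO cells Tlr4 was 15.9, 17.5 and 18.2 TPM under vehicle and 16.6, 15.2 and 15.5 TPM with MTOB. Those groups overlapped, at a log2 difference of -0.12 (95% CI -0.29 to 0.05).

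The TLR2 partners were not called with MTOB. Tlr1 had a log2 difference of 0.06 (95% CI -0.35 to 0.47) in wildtype cells. In dKO cells Tlr1 was 4.07, 6.48 and 6.66 TPM under vehicle and 8.71, 8.75 and 9.26 TPM with MTOB. These samples did not overlap, but the log2 difference of 0.58 (95% CI 0.17 to 0.99) did not pass the test (adjusted p = 0.0917, limma, Benjamini-Hochberg). Tlr6 had log2 differences of 0.06 (95% CI -0.54 to 0.67) in wildtype and 0.23 (95% CI -0.38 to 0.83) in dKO cells, intervals that include 1.5-fold changes upward and reflect a spread of 3.46 to 7.38 TPM within the wildtype MTOB samples alone.

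Of the endosomal receptors, Tlr9, the sensor of unmethylated CpG DNA, rose. In wildtype cells it was 3.84, 3.38 and 2.59 TPM under vehicle and 6.12, 7.47 and 7.14 TPM with MTOB. The lowest MTOB sample lay well above the highest vehicle sample. The log2 fold change was 0.90 (SE 0.14, 1.86-fold, adjusted p = 0.000615, limma, Benjamini-Hochberg). In dKO cells Tlr9 was 3.17, 3.20 and 3.65 TPM under vehicle and 6.74, 5.38 and 7.66 TPM with MTOB. The groups did not overlap there either, and the log2 fold change was 0.80 (SE 0.14, 1.74-fold, adjusted p = 0.002 over all groups and 0.0595 with only the compared groups, limma, Benjamini-Hochberg). At such levels the added 1 TPM makes these fold changes smaller than the ratio of the TPM themselves.

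Tlr7, a sensor of single-stranded RNA, was called lower with MTOB in dKO cells. It was 52.6, 58.7 and 59.2 TPM under vehicle and 37.9, 44.8 and 44.7 TPM with MTOB, without overlap. The log2 fold change was -0.41 (SE 0.09, 1.33-fold lower, adjusted p = 0.0112, limma, Benjamini-Hochberg), and the adjusted p was 0.0502 to 0.0541 without vehicle replicate 2, vehicle replicate 3 or MTOB replicate 1 and 0.0936 with only the compared groups. In wildtype cells Tlr7 was 59.5, 54.1 and 58.9 TPM under vehicle and 54.5, 54.8 and 44.8 TPM with MTOB. Only 1 MTOB sample stood clearly lower there, and the log2 difference was -0.16 (95% CI -0.36 to 0.03).

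Tlr3, the receptor of double-stranded RNA, and Tlr13, a receptor of bacterial ribosomal RNA, were not called with MTOB. Tlr3 was 0.125, 0.242 and 0.21 TPM under vehicle and 0.592, 1.3 and 0.189 TPM with MTOB in wildtype cells, and 0.964, 0.979 and 0.701 against 1.34, 1.65 and 2.82 TPM in dKO cells. The dKO samples did not overlap, but the log2 difference of 0.61 (95% CI 0.01 to 1.21) did not pass (adjusted p = 0.253, limma, Benjamini-Hochberg). Tlr13 had log2 differences of -0.25 (95% CI -0.48 to -0.02, adjusted p = 0.226, limma) in wildtype and -0.04 (95% CI -0.27 to 0.19) in dKO cells. Beside these results with MTOB, the macrophage markers summed to 2260 to 2320 TPM under vehicle and 2430 to 2570 TPM with MTOB in wildtype cells, and to 2300 to 2360 and 2220 to 2530 TPM in dKO cells. Of the 7 markers, 3 were called with MTOB in wildtype and 2 in dKO cells (limma), against 7.26% and 6.58% of all genes tested. These calls were led by a rise of Adgre1 in wildtype cells (log2 fold change 1.79, adjusted p = 1.01e-05, limma, Benjamini-Hochberg). The part of these markers in the results was not tested.

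**Figure D2:**
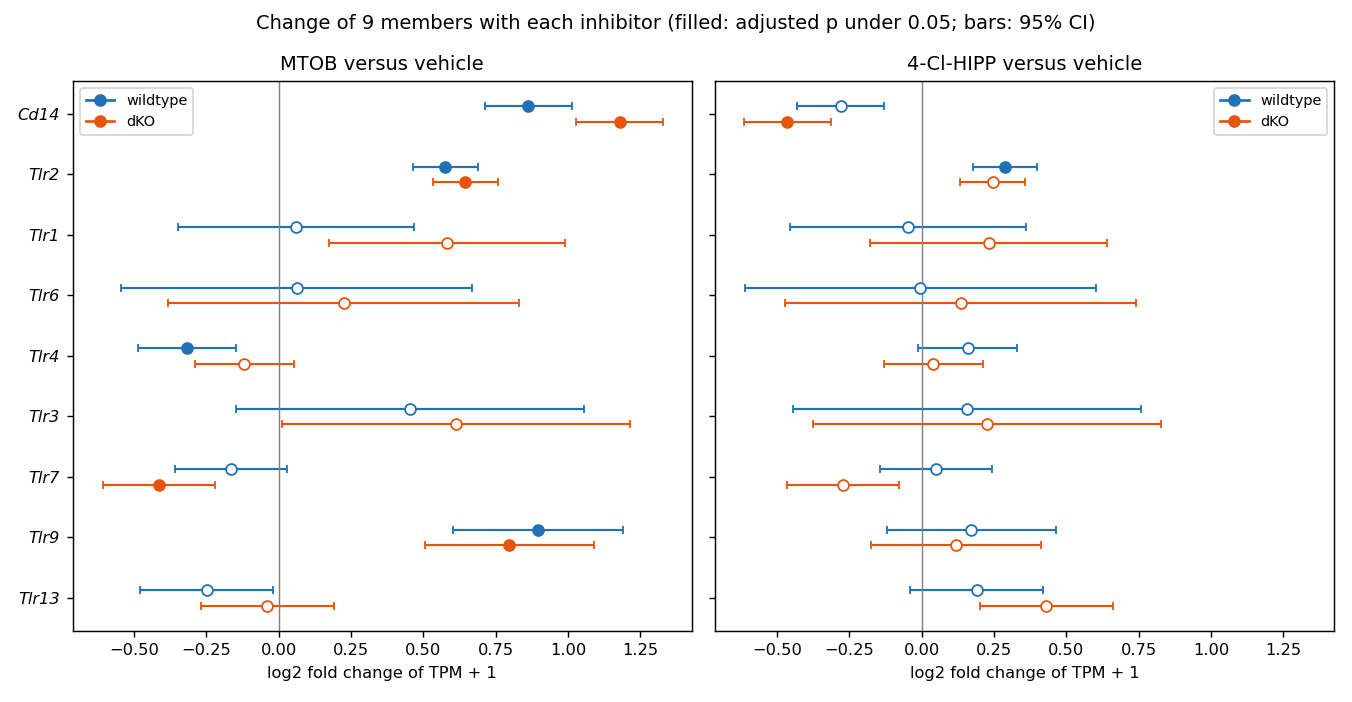
Log2 fold change of TPM + 1 (horizontal axis) of the 9 members tested (rows) for MTOB (left) and 4-Cl-HIPP (right) against vehicle, in wildtype (blue) and dKO cells (orange). Bars are 95% confidence intervals, and filled points have an adjusted p below 0.05. With MTOB, Cd14 (0.86 and 1.18), Tlr2 (0.58 and 0.64) and Tlr9 (0.90 and 0.80) are filled in both genotypes, while with 4-Cl-HIPP the filled points are Tlr2 in wildtype (0.29) and Cd14 in dKO cells (-0.46).

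With 4-Cl-HIPP, Tlr2 was called higher in wildtype and Cd14 lower in dKO cells. In wildtype cells 1 of 9 members was called, Tlr2, against 0.366% of all genes tested, and none exceeded 1.5-fold, against 0.14%. In dKO cells 1 of 9 was called, Cd14, against 0.501%, and again none exceeded 1.5-fold, against 0.153%. Vehicle and 4-Cl-HIPP samples did not overlap in 2 members in wildtype and 4 in dKO cells, against 12.6% and 13.7% of all genes. The median log2 fold change over the members was 0.16 and 0.13, beside 0.01 and 0.00 over all genes.

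Tlr2 was 94.9, 105.5 and 91.0 TPM with 4-Cl-HIPP in wildtype cells, all above the vehicle samples given above. The log2 fold change was 0.29 (SE 0.05, 1.22-fold, adjusted p = 0.023, limma, Benjamini-Hochberg). The call was lost when any of 5 of the 6 samples was left out (all but 4-Cl-HIPP replicate 3), with adjusted p = 0.0603 to 0.114, and the adjusted p was 0.0861 without a variance trend and 0.293 with only the compared groups (limma). In dKO cells Tlr2 was 94.7, 87.8 and 86.4 TPM with 4-Cl-HIPP, also above all vehicle samples, and the log2 difference of 0.25 (SE 0.05) had an adjusted p = 0.0558 (limma, Benjamini-Hochberg).

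Cd14 was lower with 4-Cl-HIPP, the opposite direction to MTOB. It was 91.57, 120.4 and 99.97 TPM in dKO cells, each below every vehicle sample, at a log2 fold change of -0.46 (SE 0.07, 1.38-fold lower, adjusted p = 0.00652, limma, Benjamini-Hochberg). Fitted with its vehicle group alone, the adjusted p was 0.294 (limma). In wildtype cells Cd14 was 370, 374 and 388 TPM, also below every vehicle sample, and the log2 difference of -0.28 (SE 0.07) did not pass (adjusted p = 0.144, limma, Benjamini-Hochberg).

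Tlr13 and Tlr7 separated from vehicle in dKO cells without passing the test. Tlr13 was 7.80, 7.87 and 7.88 TPM under vehicle and 9.70, 12.3 and 10.9 TPM with 4-Cl-HIPP. All treated samples were higher, at a log2 difference of 0.43 (95% CI 0.20 to 0.66, adjusted p = 0.116, limma, Benjamini-Hochberg). Tlr7 was 45.7, 48.5 and 46.3 TPM with 4-Cl-HIPP, below all vehicle samples, at a log2 difference of -0.27 (95% CI -0.47 to -0.08, adjusted p = 0.328, limma, Benjamini-Hochberg). The log2 differences of the members not yet given ran from -0.05 for Tlr1 to 0.19 for Tlr13 in wildtype and from 0.04 for Tlr4 to 0.23 for Tlr1 in dKO cells. None of the 7 macrophage markers was called with 4-Cl-HIPP in wildtype or dKO cells (limma), against 0.366% and 0.501% of all genes tested. Their sum was 2230 to 2270 TPM in wildtype and 2230 to 2280 TPM in dKO cells. The doses of MTOB and 4-Cl-HIPP differ and a vehicle group is shared, so their values stand side by side here and were not compared by a test.

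Under vehicle dKO cells held less Cd14 and Tlr1 RNA and more Tlr4 RNA than wildtype cells. Under vehicle 3 of 9 members were called between genotypes, against 10.7% of all genes tested, and 2 of them, Cd14 and Tlr1, exceeded 1.5-fold, against 4.83%. Under MTOB 3 members were called, against 11.2%, and 2 exceeded 1.5-fold, against 4.95%. Under 4-Cl-HIPP 5 members were called, against 10.2%, and 2 exceeded 1.5-fold, against 4.72%. The genotypes did not overlap in 6, 5 and 6 members under vehicle, MTOB and 4-Cl-HIPP, against 26.1%, 23.5% and 25.2% of all genes. The median log2 difference over the members was -0.02, -0.07 and -0.11, beside 0.01, 0.00 and 0.00 over all genes.

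Cd14 was lower in dKO cells under each treatment, with no overlap between the sample values already given. The log2 difference was -1.67 under vehicle (SE 0.07, 3.19-fold lower, adjusted p = 2.31e-10), -1.36 under MTOB (2.56-fold lower, adjusted p = 2.56e-09) and -1.86 under 4-Cl-HIPP (3.63-fold lower, adjusted p = 6.42e-11; all limma, Benjamini-Hochberg). Thus dKO cells with MTOB, at 325 ± 3.27 TPM (SD, n = 3), held less Cd14 RNA than wildtype cells under vehicle, at 458 ± 16.8 TPM.

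Tlr1 was 15.1, 11.4 and 11.5 TPM in wildtype and 4.07, 6.48 and 6.66 TPM in dKO cells under vehicle. The genotypes were well apart, at a log2 difference of -1.04 (SE 0.19, 2.05-fold lower in dKO, adjusted p = 0.0017, limma, Benjamini-Hochberg). Under 4-Cl-HIPP Tlr1 was 13.6, 10.3 and 12.8 TPM in wildtype and 8.81, 4.87 and 7.15 TPM in dKO cells. That log2 difference of -0.76 (SE 0.19, 1.69-fold lower, adjusted p = 0.0172, limma, Benjamini-Hochberg) lost its call without wildtype replicate 1, wildtype replicate 3 or dKO replicate 2 (adjusted p = 0.0609 to 0.0892) and with only the compared groups (0.119). Under MTOB Tlr1 was 12.5, 11.9 and 15.4 TPM in wildtype cells, above all dKO samples, but the log2 difference of -0.52 did not pass (adjusted p = 0.11, limma). Tlr6, its neighbour, was lower in dKO cells without overlap under vehicle only, where it was 3.74, 6.13 and 5.80 TPM in wildtype and 3.22, 2.71 and 3.65 TPM in dKO cells. Its log2 differences of -0.55, -0.39 and -0.41 under vehicle, MTOB and 4-Cl-HIPP did not pass (adjusted p = 0.293, 0.492 and 0.477, limma).

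Tlr4 was higher in dKO cells under each treatment. Under vehicle it averaged 17.2 ± 1.19 TPM in dKO against 11.7 ± 0.497 TPM in wildtype cells (SD, n = 3), a log2 difference of 0.52 (SE 0.08, 1.44-fold, adjusted p = 0.000317, limma, Benjamini-Hochberg). Under MTOB the log2 difference was 0.72 (SE 0.08, 1.65-fold, adjusted p = 1.34e-05, limma, Benjamini-Hochberg). Under 4-Cl-HIPP Tlr4 was 14.4, 11.7 and 13.4 TPM in wildtype and 17.4, 16.8 and 18.9 TPM in dKO cells, a log2 difference of 0.40 (SE 0.08, 1.32-fold, adjusted p = 0.00305 over all groups and 0.0667 with only the compared groups, limma, Benjamini-Hochberg). The lowest dKO sample thus lay above the highest wildtype sample under all 3 treatments.

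Among the endosomal receptors, Tlr13 was called higher in dKO cells under MTOB and under 4-Cl-HIPP. Under MTOB it was 5.19, 5.23 and 5.72 TPM in wildtype and 7.09, 8.73 and 7.09 TPM in dKO cells, a log2 difference of 0.43 (SE 0.11, 1.35-fold, adjusted p = 0.0149, limma, Benjamini-Hochberg) that lost its call without wildtype replicate 1, wildtype replicate 2 or dKO replicate 2 (adjusted p = 0.0525 to 0.0753). Under 4-Cl-HIPP the wildtype samples were 7.39, 8.20 and 7.37 TPM, below all dKO samples, at a log2 difference of 0.46 (SE 0.11, 1.38-fold, adjusted p = 0.00988, limma, Benjamini-Hochberg), and 0.0544 was the adjusted p without dKO replicate 2. With only the compared groups the adjusted p was 0.0723 and 0.056. Under vehicle the groups did not overlap but the log2 difference of 0.23 did not pass (adjusted p = 0.248, limma).

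Tlr7 was called lower in dKO cells under 4-Cl-HIPP, where the wildtype samples were 58.4, 54.2 and 66.4 TPM and the dKO samples 45.7, 48.5 and 46.3 TPM. The groups did not overlap, at a log2 difference of -0.34 (SE 0.09, 1.26-fold lower, adjusted p = 0.0247, limma, Benjamini-Hochberg), but the call was lost without wildtype replicates 1 or 3 or dKO replicates 1 or 3 (adjusted p = 0.0561 to 0.124) and with only the compared groups (0.0731). Tlr3 was higher in all dKO than in all wildtype samples under each treatment, and its log2 differences of 0.66, 0.81 and 0.73 did not pass (adjusted p = 0.185, 0.0843 and 0.136, limma, Benjamini-Hochberg). Tlr2 and Tlr9 were not called in any of these comparisons, and their log2 differences lay between -0.11 and 0.03. The macrophage marker sum was 2260 to 2320 TPM in wildtype and 2300 to 2360 TPM in dKO cells under vehicle. Of the 7 markers, 4 were called there (limma), against 10.7% of all genes tested. Among them Adgre1 was at a log2 difference of -1.59 and Itgam at 1.57, dKO minus wildtype (adjusted p = 1.5e-05 and 2.26e-05, limma, Benjamini-Hochberg). Bst2, listed as a plasmacytoid dendritic cell marker, averaged 113 ± 10.1 TPM in wildtype and 178 ± 20.8 TPM in dKO cells under vehicle (SD, n = 3), with log2 differences of 0.65, 0.52 and 0.60 under vehicle, MTOB and 4-Cl-HIPP (adjusted p = 0.000224, 0.0016 and 0.000504, limma, Benjamini-Hochberg), while the other marker of that list, Siglech, stayed at or below 1.28 TPM. What these markers contribute to the genotype differences was not tested, and as the dKO line came from monoclonal outgrowth, loss of CTBPs and properties of that line cannot be told apart.

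**Figure D3:**
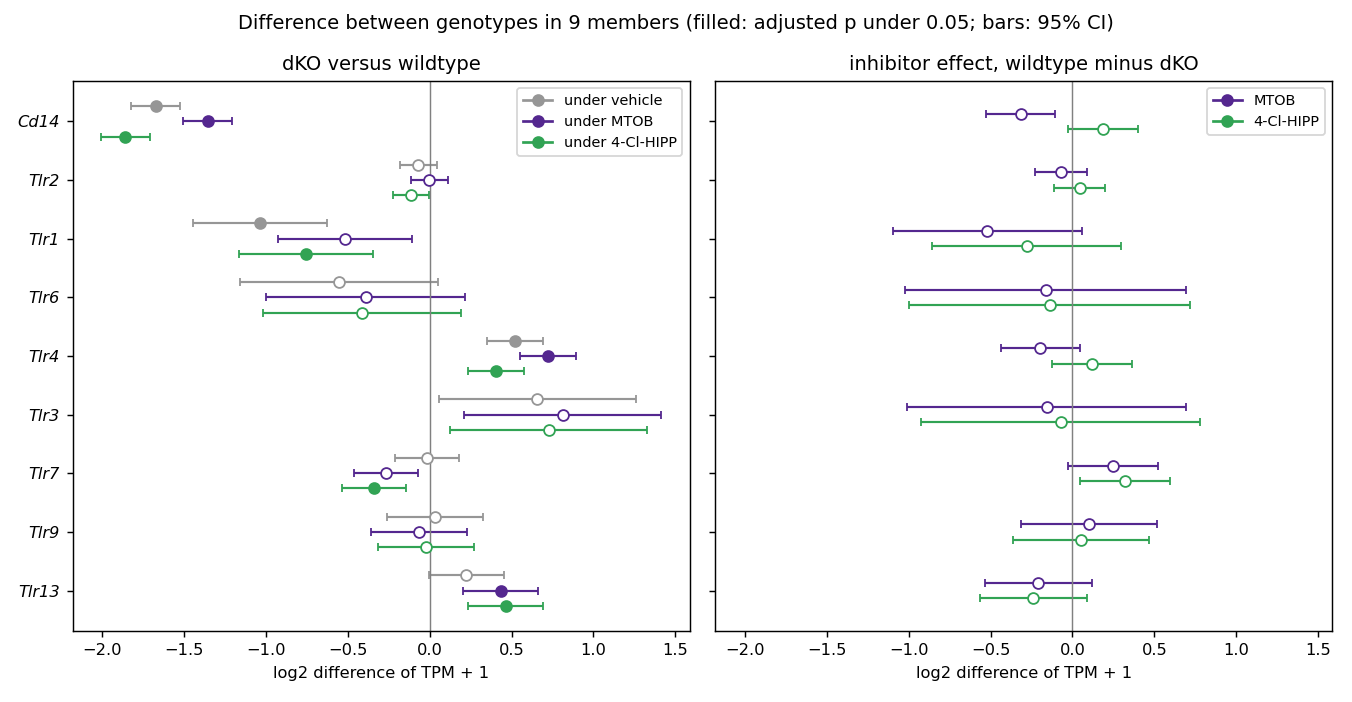
Left, log2 difference of TPM + 1 (horizontal axis) between dKO and wildtype cells under vehicle (grey), MTOB (purple) and 4-Cl-HIPP (green) for the 9 members tested (rows). Right, the inhibitor effect in wildtype minus that in dKO cells; bars are 95% confidence intervals and filled points have an adjusted p below 0.05. Cd14 (-1.67, -1.36 and -1.86) and Tlr4 (0.52, 0.72 and 0.40) are filled under all treatments, and no point is filled on the right.

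The test of the difference of the inhibitor effects between genotypes, the question of the study, called none of the members. For MTOB 0 of 9 members passed (limma, Benjamini-Hochberg), against 0.0916% of all genes. Beside 1128 of all 16383 genes, 1 member had an unadjusted p below 0.05 (limma). That member was Cd14, whose log2 increase was smaller in wildtype than in dKO cells by 0.32 (95% CI -0.53 to -0.10, adjusted p = 0.49, limma). On the TPM scale the order was the opposite, since Cd14 gained 375 TPM (SE 15.2) in wildtype and 182 TPM (SE 4.59) in dKO cells. For Tlr2 the log2 effect in wildtype minus that in dKO cells was -0.07 (95% CI -0.23 to 0.09), and for Tlr9 it was 0.10 (95% CI -0.32 to 0.51). For Tlr4 and Tlr7, each called in only 1 genotype, it was -0.20 (95% CI -0.44 to 0.04) and 0.25 (95% CI -0.03 to 0.52).

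For 4-Cl-HIPP 0 of 9 members passed (limma, Benjamini-Hochberg), against 0% of all genes. Beside 734 of all 16383 genes, 1 member had an unadjusted p below 0.05 (limma). It was Tlr7, with a difference of 0.32 (95% CI 0.05 to 0.60, adjusted p = 1, limma). For Tlr2 and Cd14 the differences were 0.04 (95% CI -0.12 to 0.20) and 0.19 (95% CI -0.03 to 0.40). The widest intervals were those of the low members Tlr6 and Tlr3, and for Tlr3 it ran from -0.92 to 0.78, so differences across that range remain compatible with these samples.

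Of the other genes of the pathway, 62 were listed and 57 tested. With MTOB in wildtype cells 14 were called higher and 5 lower, against 7.26% of all genes called in either direction, 9 of them beyond 1.5-fold, against 2.01%, and the median log2 fold change was 0.08, beside -0.01 over all genes. In dKO cells 10 were higher and 1 lower, against 6.58%, with 3 beyond 1.5-fold, against 1.63%, and a median of 0.01 beside -0.01. The count fell from 19 to 12 in wildtype cells without vehicle replicate 2 and from 11 to 7 in dKO cells without vehicle replicate 2 or 3, and it was 12 and 4 with only the compared groups. These fits rest on fewer samples, and the share of all genes called in them is not given here. With 4-Cl-HIPP 0 of 57 were called in either genotype (limma, Benjamini-Hochberg), against 0.366% of all genes in wildtype and 0.501% in dKO cells. Of the 57, 12 in wildtype and 8 in dKO cells had an unadjusted p below 0.05 (limma), beside 1341 and 1388 of all 16383 genes. The median log2 fold changes were 0.03 and 0.02, beside 0.01 and 0.00 over all genes. The difference of the effects between genotypes was called for 0 of these genes with either inhibitor (limma), against 0.0916% of all genes for MTOB and 0% for 4-Cl-HIPP. At an unadjusted p below 0.05 (limma) were 11 and 1 of the 57, beside 1128 and 734 of all 16383 genes.

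Of 4 ligand-binding and co-receptor genes tested, 1 was higher and 1 lower with MTOB in wildtype cells and 1 was higher in dKO cells, and all 3 of these calls were lost with only the compared groups. For this and the next list, 7.26% of all genes tested were called with MTOB in wildtype and 6.58% in dKO cells. Cd36, a scavenger receptor that can act with TLR2, rose with MTOB in wildtype (log2 fold change 0.80, adjusted p = 0.039) and dKO cells (0.83, adjusted p = 0.0348; both limma, Benjamini-Hochberg), but lost its call in wildtype cells without any sample except vehicle replicate 3 (adjusted p up to 0.153) and in dKO cells without vehicle or MTOB replicates 2 or 3 (up to 0.144). Ly86, which encodes MD-1, the partner of the TLR-like protein RP105, was called lower in wildtype cells (-0.16, adjusted p = 0.0407, limma, Benjamini-Hochberg), and this call was lost without any 1 of the 6 samples (adjusted p = 0.0502 to 0.153). Ly96, which encodes MD-2, averaged 12.9 ± 1.18 TPM under vehicle and 20.4 ± 2.58 TPM with MTOB in wildtype cells (SD, n = 3) and did not pass (adjusted p = 0.297, limma). Of the genes that fold, carry or cleave the receptors, 12 tested, 3 were higher and 3 lower with MTOB in wildtype cells and 1 was lower in dKO cells. The 3 higher genes were Ctsl, Ctsb and Tasl, of which only Ctsl kept its call without vehicle replicate 2 or without MTOB replicate 1, and with only the compared groups. Lgmn, a protease that can cleave endosomal receptors, fell in wildtype (-0.44, adjusted p = 1.78e-05) and dKO cells (-0.40, adjusted p = 5.96e-05), and the cathepsin gene Ctsl rose in wildtype cells (0.64, adjusted p = 4.85e-05; all limma, Benjamini-Hochberg). Unc93b1, whose product escorts the endosomal receptors, averaged 156 ± 7.11 TPM under vehicle and 154 ± 3.30 TPM with MTOB in wildtype cells (SD, n = 3).

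Downstream, 2 of 6 adaptor genes were called higher with MTOB in each genotype, Pik3ap1 in both, Myd88 in wildtype (log2 fold change 0.35, adjusted p = 0.0122) and the TRIF gene Ticam1 in dKO cells (0.45, adjusted p = 0.0297, limma, Benjamini-Hochberg). Beside the counts by list here, 7.26% of all genes tested were called in wildtype and 6.58% in dKO cells. Uncalled in wildtype cells, Ticam1 still averaged 8.73 ± 0.763 TPM under vehicle and 11.5 ± 0.437 TPM with MTOB (SD, n = 3). Myd88, uncalled in dKO cells, averaged 69.7 ± 4.53 TPM under vehicle and 77.3 ± 1.57 TPM with MTOB there (SD, n = 3). The call of Myd88 was lost without vehicle replicate 2 or MTOB replicate 2 (adjusted p up to 0.0579), and that of Ticam1 without vehicle replicates 2 or 3 or MTOB replicates 1 or 2 (up to 0.113) and with only the compared groups (0.0936). Pik3ap1, an adaptor toward PI3 kinase, rose in wildtype (log2 fold change 0.80, adjusted p = 1.2e-07) and dKO cells (0.50, adjusted p = 2.93e-05, limma, Benjamini-Hochberg). Of 18 kinase and ubiquitin enzyme genes 2 rose in each genotype, and they were the same genes: Irak2, a kinase of the MyD88 complex (1.28 and 0.84, adjusted p = 1.13e-05 and 0.000811), and Ikbke, a kinase toward interferon regulatory factors (1.50 and 0.65, adjusted p = 2.55e-05 and 0.0241, limma, Benjamini-Hochberg). In dKO cells Ikbke lost its call without any vehicle replicate or MTOB replicate 2 (adjusted p up to 0.0949, limma), and with only the compared groups neither Irak2 (0.0745) nor Ikbke (0.0545) passed there. Of 7 transcription factor genes 3 rose in wildtype and 4 in dKO cells, the latter 2 with only the compared groups. Irf8 had the smallest p of the list in both (0.90 and 0.43, adjusted p = 6.09e-07 and 0.00111), and Irf7 rose in wildtype cells (1.13, adjusted p = 0.00032, limma, Benjamini-Hochberg). Of 10 inhibitor genes 3 were higher and 1 lower in wildtype cells and 1 was higher in dKO cells. The lower gene was Cyld, a deubiquitinase gene, whose call was lost without any 1 of the 6 samples (adjusted p = 0.0602 to 0.169), and among the higher genes Pdlim2 lost its call without 5 of the 6, all but vehicle replicate 1 (up to 0.162, limma). Tnip1, a partner of the deubiquitinase A20, rose in both (0.81 and 0.54, adjusted p = 2.36e-05 and 0.00119, the latter 0.0991 with only the compared groups), and Trim30a, which has close paralogs that may share its reads, rose in wildtype cells (0.86, adjusted p = 0.00241, limma, Benjamini-Hochberg).

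Between genotypes under vehicle 8 of the 57 genes were called higher and 5 lower in dKO cells, against 10.7% of all genes called in either direction, and 5 were beyond 1.5-fold, against 4.83%, with a median log2 difference of 0.05 beside 0.01 over all genes. Irf7 had the largest difference among them (2.20, 4.61-fold, adjusted p = 1.45e-07), followed by Trim30a (1.77, adjusted p = 1.17e-06), the inhibitory receptor gene Sigirr (0.80, adjusted p = 0.00361), Ctsl (0.69, adjusted p = 1.09e-05) and Pdlim2, whose product targets p65 for degradation (0.60, adjusted p = 0.00109; all limma, Benjamini-Hochberg). By list, beside the 10.7% of all genes called, 4 of 10 inhibitor genes were higher, 1 transcription factor gene was higher and 2 lower (1 lower without wildtype replicate 2 or dKO replicates 1 or 3), 1 folding and cleavage gene was higher and 3 lower (1 lower without wildtype replicates 1 or 3 or dKO replicates 2 or 3), and 2 adaptor genes were higher, with Pik3ap1 the smallest p among them (0.56, adjusted p = 3.04e-06). Of the inhibitor genes, Otud7b (adjusted p = 0.0354, limma) lost its call without replicate 2 or 3 of either genotype (adjusted p up to 0.149). With only the compared groups its adjusted p was 0.164 (limma). The lower folding and cleavage genes Hsp90b1 and Tasl did not pass in that fit either (adjusted p = 0.0765 and 0.0963, limma). None of the 18 kinase and 4 ligand-binding genes was called (limma), and the smallest p among them belonged to Irak2 (0.42, adjusted p = 0.0532) and Ly86 (0.11, adjusted p = 0.13).

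Under MTOB 8 genes were called higher and 4 lower in dKO cells, against 11.2% of all genes called, with a median log2 difference of -0.01 beside 0.00 over all genes. Under 4-Cl-HIPP 7 were higher and 7 lower, against 10.2%, with a median of 0.02 beside 0.00. With only the compared groups 6 were called under MTOB and 7 under 4-Cl-HIPP. That fit rests on fewer samples, and the share of all genes called in it is not given here. Of the 57, 4 exceeded 1.5-fold under MTOB, against 4.95% of all genes, and 5 under 4-Cl-HIPP, against 4.72%. Those under MTOB were Irf7 (1.22, adjusted p = 8.04e-05), Trim30a (1.04, adjusted p = 0.000274), Sigirr (0.63, adjusted p = 0.0184) and, lower, Irf8 (-0.88, adjusted p = 3.33e-07, limma, Benjamini-Hochberg). Beyond 1.5-fold under 4-Cl-HIPP were Irf7 (2.15, adjusted p = 1.96e-07), Trim30a (1.52, adjusted p = 5.72e-06), Sigirr (0.84, adjusted p = 0.00235), Pik3ap1 (0.63, adjusted p = 8.64e-07) and, lower, Tnfaip3, which encodes A20 (-0.74, adjusted p = 0.0467, limma, Benjamini-Hochberg). Sigirr under MTOB lost its call without wildtype replicate 1 or dKO replicates 2 or 3 (adjusted p up to 0.072), Sigirr under 4-Cl-HIPP with only the compared groups (0.0635), and Tnfaip3 without any sample except wildtype replicate 3 (up to 0.21) and with only the compared groups (0.211, limma).

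**Figure D4:**
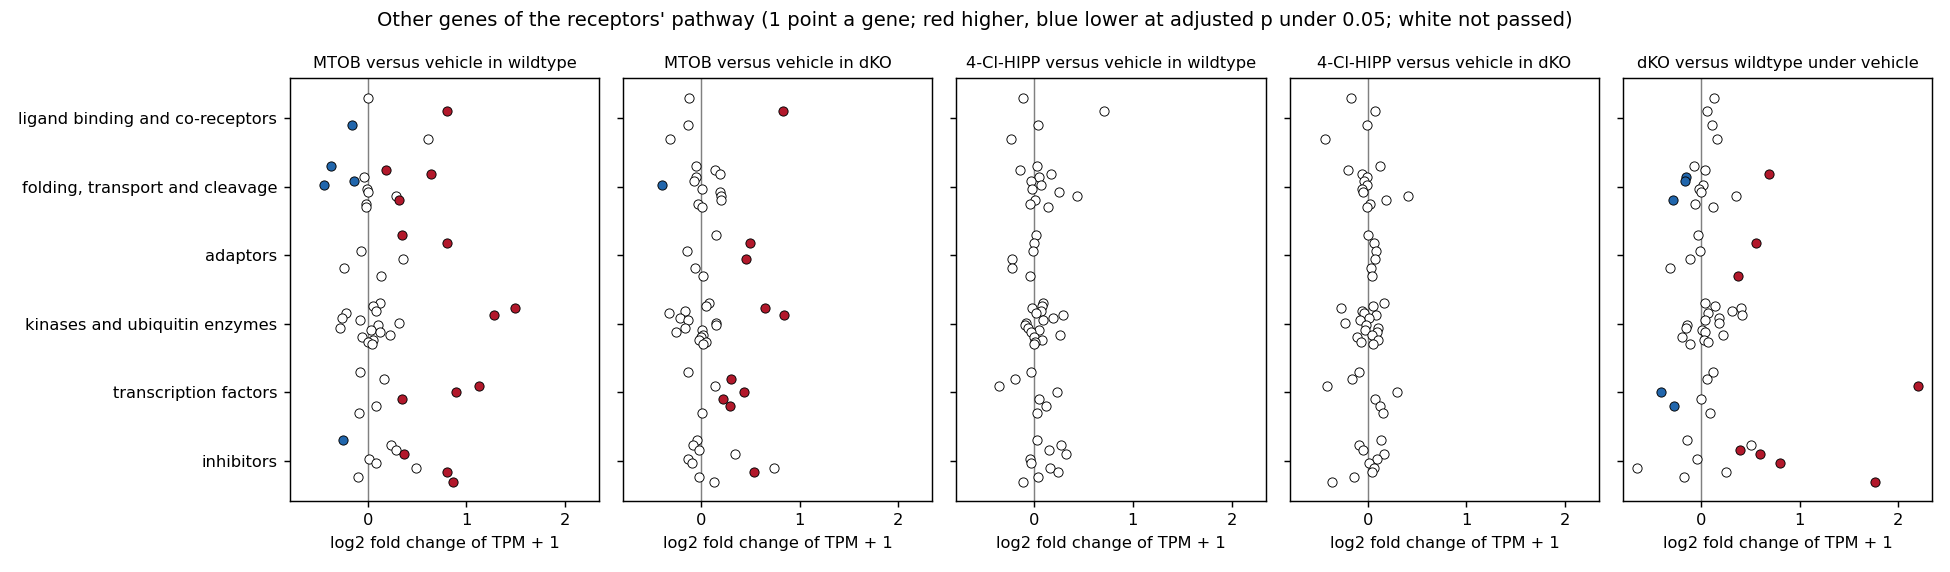
Log2 fold change of TPM + 1 (horizontal axes) of the 57 other pathway genes tested, by list (rows), for each inhibitor against vehicle in each genotype and for dKO against wildtype cells under vehicle. Points are genes, red where higher and blue where lower at an adjusted p below 0.05, and white where not called. With MTOB 19 points are coloured in wildtype and 11 in dKO cells, with 4-Cl-HIPP none, and between genotypes 13.

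The genes whose pattern over the 18 samples was most like that of a called member were found by the Pearson correlation of log2(TPM + 1) over 9711 genes with a mean of at least 5 TPM. All points share their libraries and the 6 groups, so these values describe likeness over groups. The nearest to Cd14 were Bax (r = 0.98), Fth1 (0.98) and Rab3il1 (0.97), to Tlr2 Cpd (0.94), Slc30a1 (0.92) and Srxn1 (0.91), and to Tlr9 Gpr84 (0.95), M6pr (0.94) and again Srxn1 (0.94). Bax encodes a promoter of cell death, Fth1 the heavy chain of ferritin, Slc30a1 a zinc exporter and Srxn1 an antioxidant enzyme. For Tlr4 they were Ptms (0.96), Cldn11 (0.96) and Syngr1 (0.95), and for Tlr13 Fads2 (0.93), Sla (0.91) and Emp1 (0.91). For Tlr1 they were Miga1 (0.91), St3gal6 (0.88) and Tnfrsf26 (0.88), and for Tlr7 Kif15 (0.88), Ankle1 (0.87) and Itga4 (0.85).

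Between members, Tlr2 and Tlr9 had the highest correlation over the 18 samples (r = 0.90), which was 0.39 after the group means were removed. Tlr4 and Cd14 had the most negative (r = -0.91), which was -0.02 after the group means were removed. Tlr1 and Tlr6, which share sequence, had r = 0.55 over the samples and 0.03 within groups.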

How the data were processed

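Total RNA of J774.1 cells was sequenced in 18 samples, which their labels divide by genotype and treatment into 6 groups of 3. The methods name an unstranded TruSeq mRNA kit with rRNA depletion, the labels polyA RNA. According to the methods and the submitters' processing notes, the authors quantified transcripts with Salmon 1.9.0 (GC bias correction, Gencode M28, GRCm39), summed them per gene in tximport and compared groups in DESeq2 1.44.0. The TPM of each gene and sample were deposited by the authors, who call them scaled. The authors also deposited a signal for each gene, the mean normalized count over samples, and, for each inhibitor in each genotype, log2 fold changes and adjusted p-values, which were not used. Depth is not preserved in TPM, so precision rests on the 3 samples per group. The labels call these replicates without naming separate cultures, the methods speak of biological triplicates, and p-values measure the spread between these samples, which may be partly technical.

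Here log2(TPM + 1) was used for the 16383 genes whose mean normalized count exceeded the 10th percentile of that column (0.222). It was fitted with 6 group means over all samples in limma 3.58.1 (R 4.3.3), using moderated variances that followed a trend on the log2 of that mean count, and p-values were adjusted by Benjamini-Hochberg over all genes. Contrasts were each inhibitor against vehicle in each genotype, dKO against wildtype under each treatment, and, for each inhibitor, its effect in wildtype minus that in dKO cells. The fit was tested on simulated data. Intervals are 95% and not adjusted for the number of genes. Alternatives were other pseudocounts (0.1 and 5), other filters, no trend, a rescaling of samples, only the compared groups, a replicate block and leaving out each sample.

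All 10 members were named in each comparison. Pathway genes were named where they passed with a fold change above 1.5, or had the smallest p of their list with MTOB or between genotypes under vehicle, besides Ly96, Unc93b1, Ly86, Ctsb, Tasl, Hsp90b1, Myd88, Ticam1, Cyld and Otud7b, and the marker Bst2, which were named after their values were seen. The nearest patterns are the 3 genes most like each called member. The members and lists were chosen with earlier results of these data known. Gene positions and shared 31-base words came from GENCODE vM39 (GRCm39), promoters from RefSeq (GRCm38.p6). Figures were drawn with matplotlib 3.10.9.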

Additional observations from a re-analysis of the deposited data

How the results depend on the processing

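The sign of every member's log2 fold change that was called stayed the same under every alternative run. Pseudocounts of 0.1 and 5, no filter and rescaled samples changed none of the 63 calls of single members, and rescaling moved the median of all genes by less than 0.1 in log2. Fitting only the compared groups, which leaves fewer samples to estimate the spread, gave 2 called members for MTOB in dKO cells, 0 for 4-Cl-HIPP in wildtype cells, 0 for 4-Cl-HIPP in dKO cells and 1 between genotypes under 4-Cl-HIPP. Shares of all genes called under the alternative settings are not given here. Losses of calls among the members therefore cannot be set against losses over all genes. For 4-Cl-HIPP in wildtype cells the count was 0 without a variance trend, and for 4-Cl-HIPP in dKO cells it was 2 with a mean of at least 1 TPM, where Tlr2 passed (adjusted p = 0.0447, limma). Tlr3 between genotypes under vehicle passed with only the compared groups (adjusted p = 0.0356, limma). With 1 sample left out the counts ran from 0 to 1 for 4-Cl-HIPP in wildtype cells and from 3 to 5 between genotypes under 4-Cl-HIPP, and 23 of 126 values of called members no longer passed.

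The replicate numbers did not pair the samples: deviations from the group means correlated above 0.1 in 7 of 45 same-numbered pairs (r from -0.176 to 0.198 over 9717 genes), and 8 of 18 samples lay closest to their own number. With the replicate block the count for 4-Cl-HIPP in wildtype cells was 0 (Tlr2, adjusted p = 0.0552, limma), and the block changed no other call of a member. The block called 16 pathway genes in place of 19 with MTOB in wildtype cells and 10 in place of 11 in dKO cells. Depth is unknown, and the low counts of Tlr3, Tlr6 and Tlr8 limit what could be detected for them. How replicate cultures were separated is not given in the sources used here. Recounting the pathway lists under other settings was chosen after seeing the data.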
